A study of Mus musculus with 12 samples.

Results

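Semaphorins are secreted or membrane-bound signals that steer growing axons, dendrites and blood vessels. Plexins are the receptors that turn semaphorin binding into a change of the cytoskeleton, and neuropilins are co-receptors that most secreted class 3 semaphorins need in order to reach a plexin A. In the developing cortex the system is known for repelling and attracting axons, orienting apical dendrites, guiding migrating interneurons and pruning synapses. The genes described here are 31 listed family members, 20 semaphorins (7 secreted and 13 membrane-bound), 9 plexins and 2 neuropilins, out of 51912 gene rows in each count file. They were chosen by name, with earlier results of these data known, and each matched 1 identifier in the files.

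RNA was measured in 12 libraries of cortex from newborn mice (P0, postnatal day 0). H3.3 is the histone H3 variant that is placed in chromatin outside DNA replication, and it is encoded by H3f3a and H3f3b. In 4 libraries (H3.3 Neurod6 dKO, here dKO-N) both genes were conditional knockouts under Neurod6-Cre, a driver active in young postmitotic excitatory neurons. In 4 libraries (H3.3 Emx1 dKO, here dKO-E) the driver was Emx1-Cre, whose activity starts sooner, in the dividing precursors of the same neurons. The other 4 libraries were labelled control, and the labels name no allele or Cre for them. Both drivers leave interneurons, microglia and vessels with intact H3.3 genes, so each knockout is a mixture of deleted and undeleted cells.

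Libraries held 722080 to 3502017 counts assigned to genes, so 3 counts correspond to 0.86 to 4.15 CPM (each gene's count as a share of its library total, on the usual CPM scale) before scaling. Depth was uneven between groups. The shallowest of the 12 libraries were dKO-N 1, 2 and 3 (722080, 1046240 and 746318 counts), and the deepest was dKO-N 4 (3502017 counts). The values below are CPM scaled with TMM factors, which correct for differences in library composition, and are given as mean ± SD over 4 libraries. Several libraries stood apart. H3f3a was at 36.7, 30.8, 22.1 and 37.8 CPM in dKO-N, 30, 28.4, 25.8 and 22.9 CPM in dKO-E, and 17.7, 117, 16.4 and 121 CPM in control. The libraries labelled control 1 and 3 thus lay below all 8 knockout libraries, which goes against their label. H3f3a passed the edgeR test against control in neither knockout (adjusted p = 0.494 in dKO-N and 0.228 in dKO-E). H3f3b was at 111 to 146 CPM in dKO-N, 167 to 180.1 CPM in dKO-E, and 121, 76.7, 143 and 84.2 CPM in control. It was thus higher in control 1 and 3 than in control 2 and 4. In the same test H3f3b was higher in dKO-E than in control (log2 fold change 0.69, adjusted p = 0.000707). It was also higher in dKO-E than in dKO-N (0.53, adjusted p = 0.0303). Counts here cover each gene as a whole, so they do not isolate the excised exons, and groups are named by their labels throughout. Within dKO-N, library 4 differed from the others by 3.19 to 5.99 in chi-square per degree of freedom, against 1.76 to 2.37 between the other 3. This measure also grows with depth. Y-linked genes had 1035 and 274 counts in dKO-E 3 and 4 and at most 3 in every other library, and the labels give no sex. Xist, expressed from the inactive X chromosome of females, had 2 and 4 counts in dKO-E 3 and 4. It had 893 to 4604 counts in every other library. By these counts dKO-E 3 and 4 were male and all other libraries female. Fits without dKO-E 3 and 4 therefore also leave out the males. The 8 markers fixed for cortical excitatory neurons were detected, and their summed level was 1585 to 2274 CPM in dKO-N, 1113 to 1494 CPM in dKO-E and 2398 to 2770 CPM in control. In bulk tissue, fewer cells of a type and less RNA per cell cannot be told apart.

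Promoter sequences are shown for the 2 members that fell in both knockouts, Sema3e and Sema7a, and for Nrp2, which had the largest fold change of any member. Plxna2 and Sema5b rose in both knockouts and are not shown, because their RefSeq windows lie mostly or wholly within exons of the gene in GENCODE M21. The stretches are from RefSeq (GRCm38.p6, plus strand), end at the base before the GENCODE gene start and are written 5′ to 3′. Capitals mark the GC box, GGGCGG or its reverse complement CCGCCC. Of 32851 promoter windows of 250 bases, 32.7% held a GC box.
Sema3e, chr5:14025026-14025275: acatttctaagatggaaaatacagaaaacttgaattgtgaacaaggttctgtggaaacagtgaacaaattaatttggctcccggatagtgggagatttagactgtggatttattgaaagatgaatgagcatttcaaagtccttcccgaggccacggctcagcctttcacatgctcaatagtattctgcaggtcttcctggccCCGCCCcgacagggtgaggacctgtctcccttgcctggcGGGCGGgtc
Sema7a, chr9:57939862-57940111: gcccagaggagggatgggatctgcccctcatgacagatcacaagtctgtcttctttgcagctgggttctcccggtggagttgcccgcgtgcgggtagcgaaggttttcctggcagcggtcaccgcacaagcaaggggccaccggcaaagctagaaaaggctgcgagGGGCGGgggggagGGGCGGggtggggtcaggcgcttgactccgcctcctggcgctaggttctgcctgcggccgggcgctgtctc
Nrp2, chr1:62703067-62703284: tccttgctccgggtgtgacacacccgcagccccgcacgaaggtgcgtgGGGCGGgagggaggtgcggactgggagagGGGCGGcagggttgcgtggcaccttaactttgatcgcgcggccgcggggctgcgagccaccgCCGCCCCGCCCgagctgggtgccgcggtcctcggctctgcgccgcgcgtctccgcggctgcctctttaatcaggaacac
The Sema3e stretch held 2 GC boxes and 7 CpG sites and was 48% G and C. The Sema7a stretch held 2 GC boxes and 17 CpG sites at 66.4% G and C. The Nrp2 stretch, of 218 bases, held 4 GC boxes, a pair of which share a base, and 28 CpG sites at 72.5% G and C. Over all windows the medians were 6 CpG sites and 52.4% G and C. On either strand, these 3 stretches held no TATA box, searched as TATAAA and present in 12.4% of all windows. They held no cyclic AMP response element, searched as TGACGTCA and present in 1.55%. They also held no CCAAT, present in 33.8%, and no E-box of the form CAGATG, present in 14.4%. These letters describe the windows, and no binding was measured.

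Of the 31 genes, 28 had enough counts to be tested and 11 of these passed the test in at least 1 comparison. Sema3b, Sema3g and Plxnb3 did not pass the filter on low counts, with 21, 5 and 12 counts over all 12 libraries. Sema3g, which is known from endothelium, had 2 counts in the dKO-N libraries, 0 in the dKO-E libraries and 3 in the control libraries. The tested genes covered a wide range. Per kilobase of exon, the highest control levels were those of Plxna4 (184 ± 5.51 CPM per kb), a receptor in Sema3a and class 6 semaphorin signalling, Sema6d (84.7 ± 8.23) and Plxna2 (64.5 ± 3.03; SD, n = 4 each). These 3 levels did not overlap within their SD. Per kilobase of the whole gene the order was Plxna3 (6.24 CPM per kb), Sema4g (5.84) and Plxna4 (5.83), and whether introns were counted is not given in the sources used here.

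The positions of the 11 genes that passed, and of Nrp1, are those of GENCODE M21 on GRCm38, and each count covers the gene rather than a site in it. Sema3a lies at chr5:13125414-13602565, plus strand, Sema3e at chr5:14025276-14256689, plus strand, and Sema4d at chr13:51685529-51793747, minus strand. Sema5b lies at chr16:35541145-35664732, plus strand, Sema6d at chr2:124089969-124667770, plus strand, and Sema7a at chr9:57940112-57962865, plus strand. Plxna1 lies at chr6:89316314-89362620, minus strand, and Plxna2 at chr1:194618218-194816869, plus strand. Plxnc1 lies at chr10:94790866-94944835, minus strand, and Plxnd1 at chr6:115954811-115995005, minus strand. Nrp1 lies at chr8:128358604-128503363, plus strand, and Nrp2 at chr1:62703285-62818695, plus strand.

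**Figure D1:**
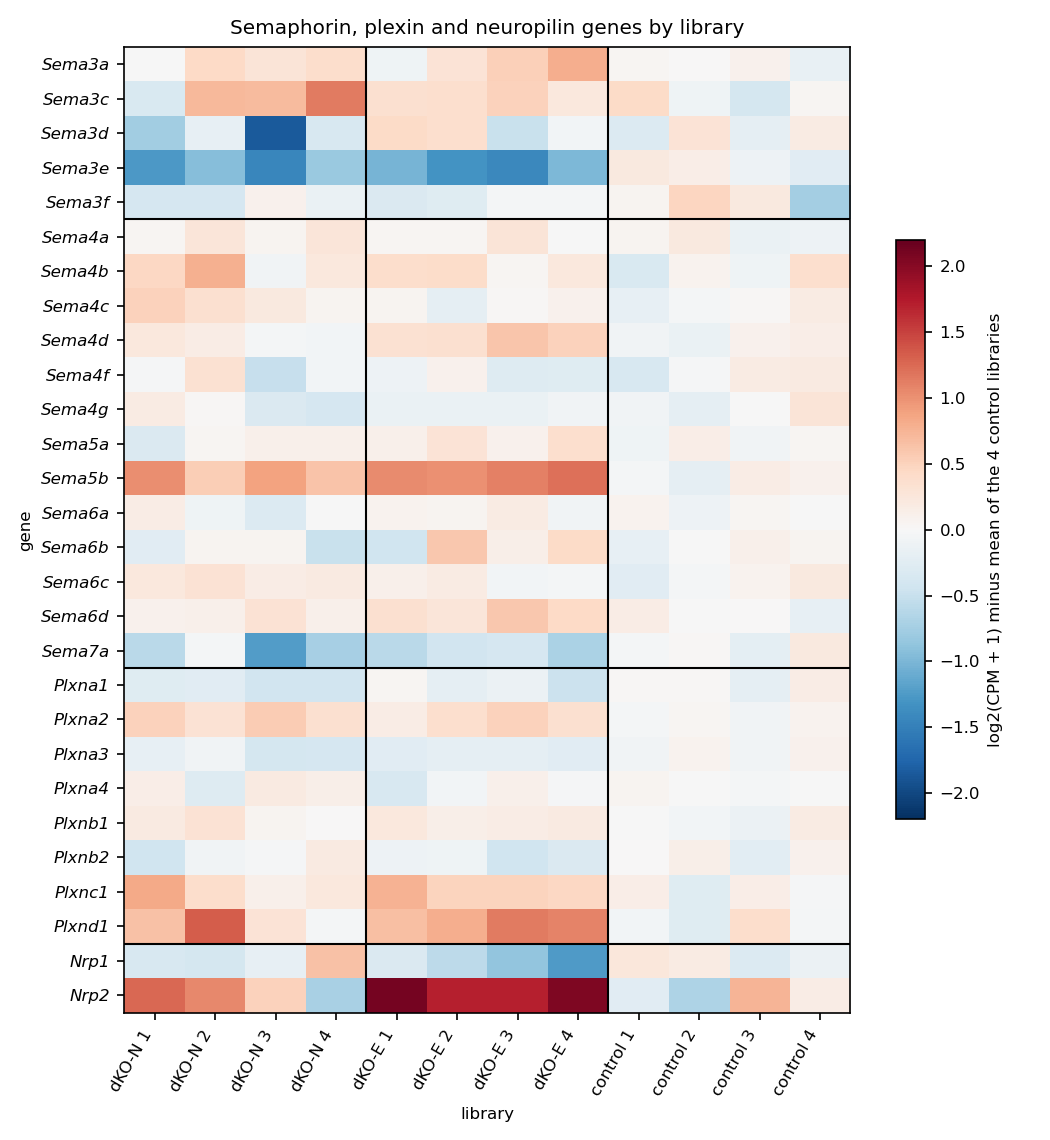
Log2(CPM + 1) of the 28 tested genes (rows, by family) in each of 12 libraries (columns), minus the mean of the 4 control libraries; red is higher and blue lower, and black lines part the groups and families. Sema3e is blue and Sema5b red in all 8 knockout libraries, and Nrp2 is darkest in the 4 dKO-E libraries, at 233 to 306 CPM.

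Deletion in postmitotic neurons (dKO-N) was set against control to ask how these genes respond when H3.3 is lost after neurons leave the cell cycle. Sema5b and Plxna2 rose (2 of 28, beside 5.04% of all genes tested), and Sema3e, Sema7a and Plxna1 fell (3 of 28, beside 6.29%). These 5 of 28 members (17.9%) stand beside 11.3% of all 11076 genes tested. The members' median log2 fold change was 0.06, against 0.01 over all genes. CPM did not overlap between the groups for 4 members, against 13% of all genes. Scaled by library totals, 3 of 5 calls were higher, against 2 of 5. Without dKO-N 4 the number was again 5, but Sema7a (log2 fold change -0.49, adjusted p = 0.0596) and Plxna1 (-0.31, adjusted p = 0.077) were lost and Plxnc1 (0.45, adjusted p = 0.0306) and Plxnd1 (0.86, adjusted p = 0.0177) were called.

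Deletion from progenitors onward (dKO-E) was set against the same controls. Nrp2, Sema5b, Plxnd1, Plxnc1, Sema4d, Sema3a, Sema6d and Plxna2 rose (8 of 28, beside 10.1% of all genes), and Sema3e and Sema7a fell (2 of 28, beside 10.1%). These 10 of 28 members (35.7%) stand beside 20.2% of all genes. The median was 0.10, against 0.01 over all genes, and 11 members did not overlap between the groups, against 25.5% of all genes. With library totals 10 of 11 calls were higher, against 8 of 10, while that scaling moved the median of all genes to 0.135. Without the libraries labelled control 1 and 3 the number was 6, and without dKO-E 3 and 4 it was 3 (Plxnc1, Sema3e and Sema5b). Sema3e, Sema5b, Sema7a and Plxna2 were called in both knockouts, which is 80% of the dKO-N calls and 40% of the dKO-E calls. Both sets share their control libraries, and dKO-N 1, 2 and 3 were shallower than every dKO-E library.

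The knockouts were also compared with each other, with driver and time of deletion changing together. Sema4d and Sema5b were higher in dKO-E than in dKO-N (2 of 28, beside 3.11% of all genes), and 0 of 28 members were lower (beside 3.73%). This is 2 of 28 (7.14%), beside 6.84% of all genes. Leaving out dKO-N 4, dKO-E 3 or dKO-E 4 gave 0 calls among the members, with 5 or 6 at an unadjusted p under 0.05 (edgeR). DESeq2 also gave 0, with 5 at an unadjusted p under 0.05.

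**Figure D2:**
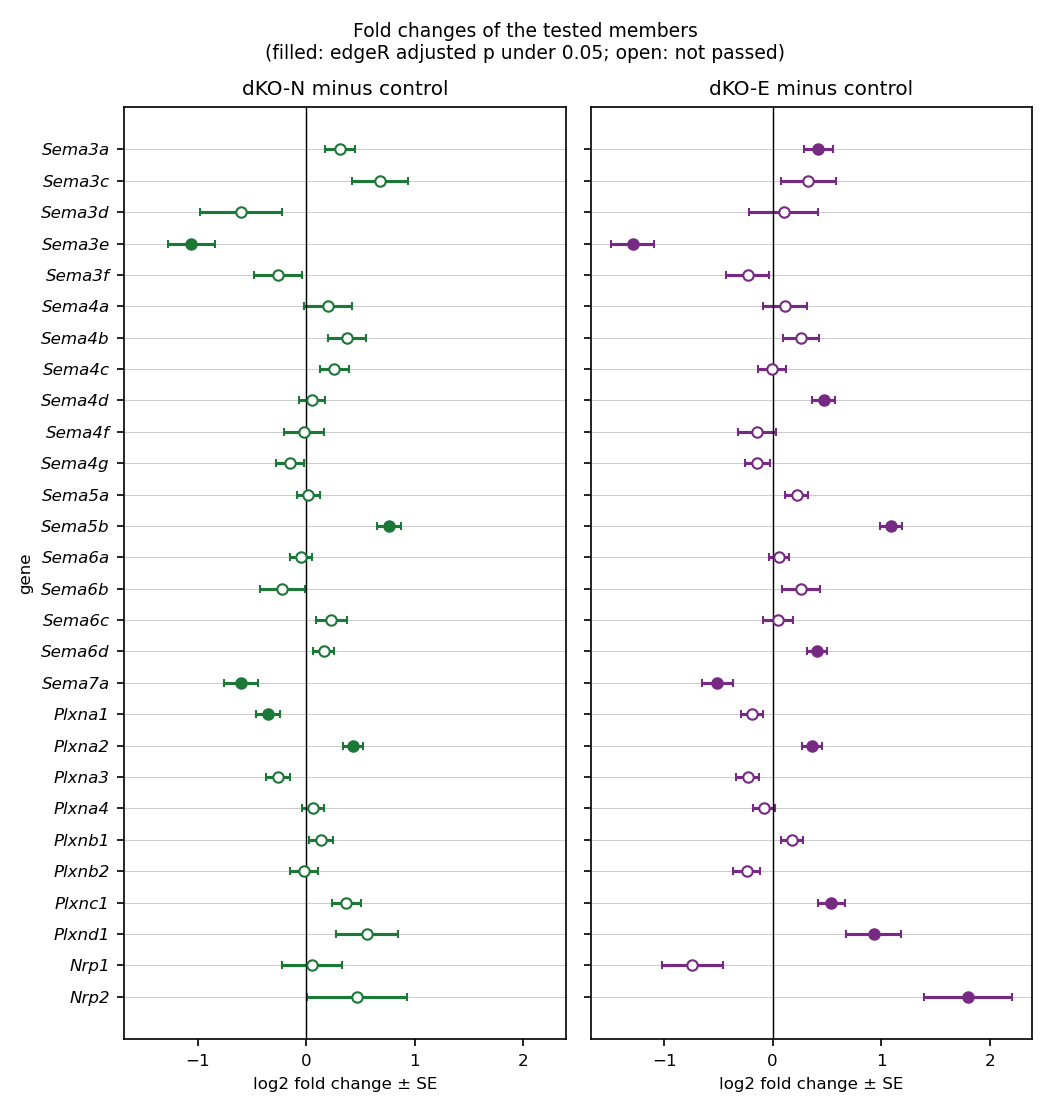
Log2 fold change ± SE of the 28 tested genes in dKO-N (left) and dKO-E (right) against control, on a common axis; filled points passed the edgeR test at an adjusted p under 0.05 and open points did not. Sema3e lies lowest in both panels, at -1.06 and -1.29, and Nrp2 highest in dKO-E, at 1.80; the panels share the control libraries.

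Among the secreted semaphorins, Sema3e fell in both knockouts. Sema3e binds Plxnd1 directly, without needing a neuropilin, and is known for vessel and axon patterning in the mouse. Sema3e stood at 10.9, 14, 9.65 and 15.3 CPM in dKO-N, 13.1, 10.5, 9.77 and 13.4 CPM in dKO-E, and 32.1, 30.9, 25.5 and 23.2 CPM in control. Every knockout library lay below every control library. Its log2 fold change was -1.06 (SE 0.215, adjusted p = 0.000525) in dKO-N and -1.29 (SE 0.201, adjusted p = 6.92e-06) in dKO-E. Both calls held under every alternative tried, and dKO-E did not pass against dKO-N (-0.23, adjusted p = 0.64).

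Sema3a, the class 3 ligand of Nrp1 that repels cortical axons, rose in dKO-E. It was at 138, 182, 213 and 259 CPM in dKO-E, against 153, 149, 159 and 133 CPM in control. The groups overlapped through dKO-E 1. Against control its log2 fold change was 0.42 (SE 0.134, adjusted p = 0.0293). The call was lost when control 1, 2 or 4, dKO-N 4, dKO-E 3 or dKO-E 4 was left out (adjusted p up to 0.13). It was also lost with only dKO-E and control fitted (0.42, adjusted p = 0.115) and without control 1 and 3 together (0.49, adjusted p = 0.0996). The value itself was 0.27 without dKO-E 4 and 0.12 (adjusted p = 0.673) without dKO-E 3 and 4, the 2 libraries with the highest levels. In dKO-N, Sema3a was at 148, 202, 181 and 195 CPM (0.31, adjusted p = 0.185).

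Sema3c, an attractant of cortical and callosal axons, did not pass in any comparison of all 12 libraries. Levels were 77.5, 162, 159.9 and 218 CPM in dKO-N, 126, 127, 141 and 116 CPM in dKO-E, and 133, 92.1, 75.6 and 102 CPM in control. Of the dKO-N libraries, 3 lay above all controls, and library 1 did not. The log2 fold change in dKO-N was 0.68 (SE 0.26, adjusted p = 0.147), and 0.87 without dKO-N 1 (adjusted p = 0.000465). Without that library dKO-E was also called lower than dKO-N (-0.53, adjusted p = 0.0331). Sema3f, the ligand of Nrp2 that prunes spines, averaged 20.2 ± 3.37 CPM in dKO-N, 20.5 ± 2.13 CPM in dKO-E and 24.2 ± 7.98 CPM in control. Sema3d was scarce, at 4.42 ± 2.27 CPM in dKO-N, 8.23 ± 2.54 CPM in dKO-E and 7.71 ± 1.74 CPM in control, with 30 counts in dKO-N in all. Neither gene passed in any comparison.

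Among the membrane semaphorins, Sema5b rose in both knockouts. Sema5b is a transmembrane semaphorin with thrombospondin repeats, which with Sema5a confines retinal neurites through Plxna1 and Plxna3 in the mouse. Levels were 235, 168, 214 and 178 CPM in dKO-N, 236, 232, 250.1 and 268 CPM in dKO-E, and 111, 99.6, 128 and 123 CPM in control. Each knockout library exceeded each control library. In dKO-N it rose by a log2 fold change of 0.76 (SE 0.109, adjusted p = 2.45e-06) and 1.09 in dKO-E (SE 0.103, adjusted p = 1.75e-10), and both calls held under every alternative. Sema5b was higher in dKO-E than in dKO-N (0.34, SE 0.105, adjusted p = 0.0441), with dKO-N 1 inside the dKO-E range. That difference was lost in 9 of 12 fits that left out 1 library, those without control 1, 3 or 4, dKO-N 2 or 4 or any dKO-E library (adjusted p up to 0.149). Sema5a, its closest relative, did not pass, at 124 ± 16.6 CPM in dKO-N, 145 ± 14 CPM in dKO-E and 124 ± 9.78 CPM in control. Its dKO-E value (0.22, adjusted p = 0.126) became a call with library totals (0.35, adjusted p = 0.00904) and with only dKO-E and control fitted (adjusted p = 0.0493). The summed level of the 6 radial glia markers was also higher in the knockouts, at 325 to 388 CPM in dKO-N and 307 to 371 CPM in dKO-E, against 234 to 280 CPM in control. Pax6, Slc1a3 and Vim rose among them in dKO-N, and Sox9 and Vim in dKO-E. Their part in the Sema5b result was not tested.

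Sema7a, a lipid-anchored semaphorin that promotes axon growth through integrin beta 1 and also binds Plxnc1, fell in both knockouts. Sema7a stood at 50.3, 73.7, 31.7 and 45.4 CPM in dKO-N, 50.3, 56.7, 58.6 and 46.4 CPM in dKO-E, and 74.2, 77.7, 65.6 and 88.3 CPM in control. The dKO-E libraries lay below all controls, while dKO-N 2 lay within the control range. The log2 fold change was -0.60 in dKO-N (SE 0.155, adjusted p = 0.00796), with -0.51 in dKO-E (SE 0.141, adjusted p = 0.0085). The dKO-E call was lost with library totals (-0.38, adjusted p = 0.0622), and both were lost with every library thinned to 722080 counts (-0.41 in dKO-N with an adjusted p of 0.217, and -0.32 in dKO-E with one of 0.296).

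Sema4d, a ligand of Plxnb1, rose in dKO-E. It was at 97.3, 98.1, 118 and 109.6 CPM in dKO-E, 89.8, 85.8, 74.4 and 73.3 CPM in dKO-N, and 72.4, 68.7, 81.6 and 84.7 CPM in control. The dKO-E libraries lay above the other 8. On the log2 scale the difference was 0.47 against control (SE 0.108, adjusted p = 0.0016) and 0.41 against dKO-N (SE 0.117, adjusted p = 0.0259). The call between the knockouts was lost without dKO-N 3 or 4 or dKO-E 3 or 4 (adjusted p up to 0.144), and that against control without dKO-E 3 and 4 together (0.34, adjusted p = 0.115). dKO-N and control overlapped (0.05, adjusted p = 0.861).

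Sema6d, a transmembrane ligand of Plxna1, was the most abundant semaphorin per kilobase of exon and rose in dKO-E. It was at 1138, 1075, 1339 and 1207 CPM in dKO-E, against 1001, 889, 901 and 788 CPM in control. The groups did not overlap. Its rise was 0.41 on the log2 scale (SE 0.0927, adjusted p = 0.00115), and 0.30 (adjusted p = 0.0969) without dKO-E 3 and 4. The dKO-N libraries held 949.6, 961, 1117 and 966 CPM (0.16, adjusted p = 0.335), and dKO-E did not pass against dKO-N (0.25, adjusted p = 0.0919) except with library totals (0.32, adjusted p = 0.0148). Sema6a, a ligand of Plxna2 and Plxna4, averaged 175 ± 23.0 CPM in dKO-N, 189 ± 13.8 CPM in dKO-E and 181 ± 10.7 CPM in control and did not pass. The other membrane semaphorins tested, Sema4a, Sema4b, Sema4c, Sema4f, Sema4g, Sema6b and Sema6c, passed in no comparison of all 12 libraries. Of these, Sema4b had the largest log2 fold change in dKO-N (0.38, adjusted p = 0.182) and Sema6b the largest between the knockouts (0.48, adjusted p = 0.146; 0.63, adjusted p = 0.049 without dKO-E 1).

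**Figure D3:**
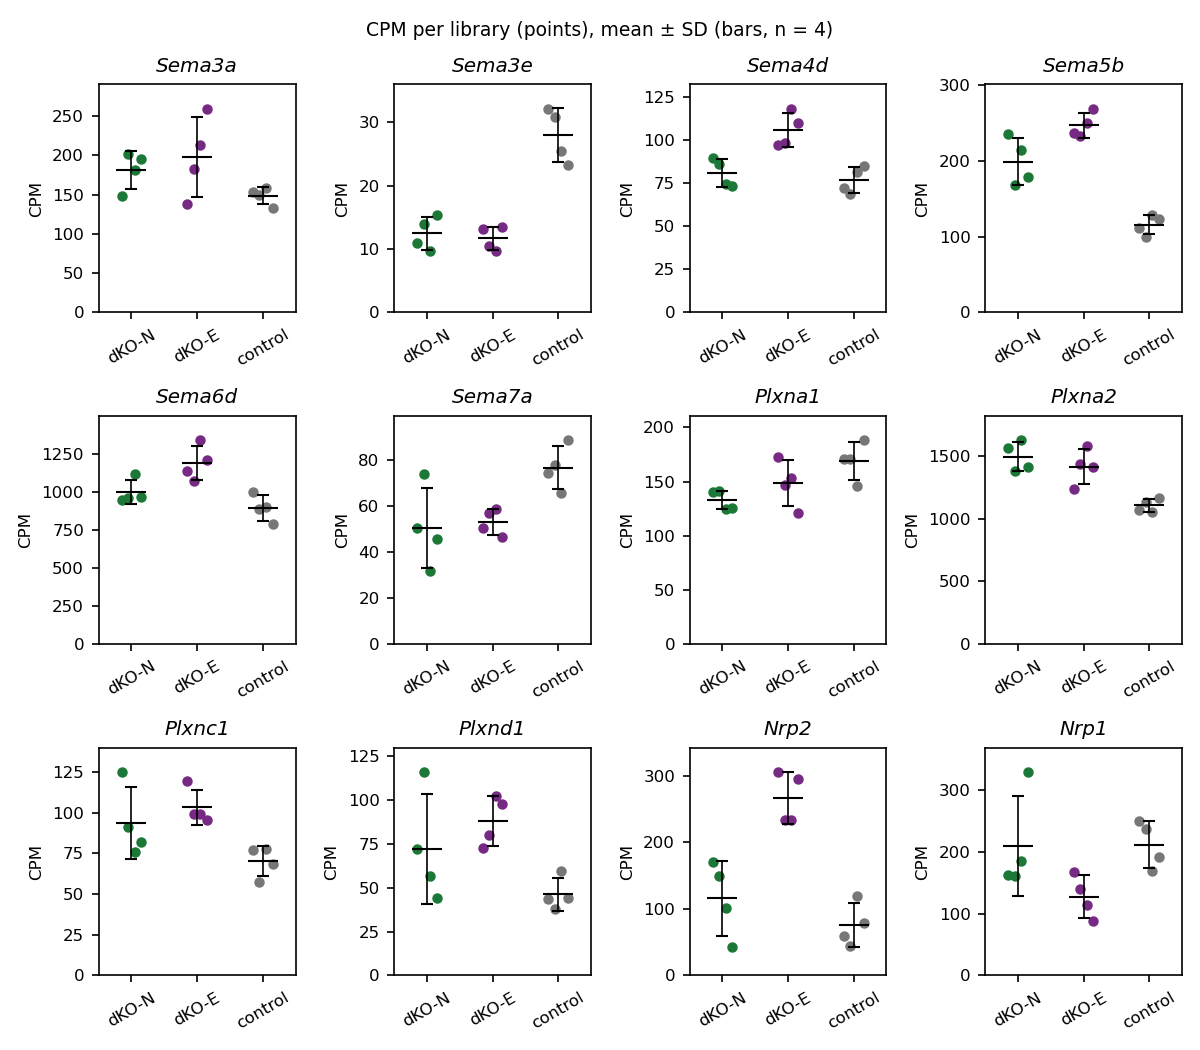
CPM in each library (points) with the mean ± SD (bars, n = 4) for the 11 genes that passed in at least 1 comparison and for Nrp1, in dKO-N, dKO-E and control, with each axis starting at 0. Sema3e, Sema5b and Plxna2 separate both knockouts from control, while the dKO-N points of Plxnd1, Nrp2 and Nrp1 spread widely, from 43.0 to 171 CPM for Nrp2.

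Among the plexins, Plxna2 rose in both knockouts. Plxna2 is a receptor for class 6 semaphorins such as Sema6a and, with a neuropilin, for class 3. Plxna2 stood at 1567, 1380.1, 1628 and 1417 CPM in dKO-N, 1239, 1438, 1581 and 1412 CPM in dKO-E, and 1074, 1136, 1055 and 1166 CPM in control. Each knockout library lay above each control library. The rise was 0.43 on the log2 scale in dKO-N (SE 0.0908, adjusted p = 0.000759), a call that held under every alternative, and 0.36 in dKO-E (SE 0.0901, adjusted p = 0.00364). The dKO-E call was lost without control 1 and 3 (0.30, adjusted p = 0.0997) and without dKO-E 3 and 4 (0.27, adjusted p = 0.142).

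Plxna1, the receptor of Sema6d and a partner of Nrp1, was lower in dKO-N, where it fell to 140.1, 141, 125 and 126 CPM, against 171, 171, 146 and 188 CPM in control. The groups did not overlap. This was a log2 fold change of -0.35 (SE 0.109, adjusted p = 0.03), and the call was lost without control 1, 2 or 4 or dKO-N 3 or 4 (adjusted p up to 0.107), with DESeq2 (adjusted p = 0.0534) and with library totals (adjusted p = 0.0924). In dKO-E it was at 173, 147, 153 and 121 CPM (-0.19, adjusted p = 0.21). An antisense gene overlaps its exons and had 13 counts over all libraries, against 3505 for Plxna1.

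Plxnc1, the Sema7a receptor, rose in dKO-E, where its ligand gene fell. It was at 119.5, 98.9, 98.9 and 95.6 CPM in dKO-E, against 77.0, 57.5, 77.7 and 68.7 CPM in control, with no overlap. Plxnc1 had a log2 fold change of 0.54 (SE 0.123, adjusted p = 0.00131) and held under every alternative. The dKO-N libraries held 125, 91.4, 75.8 and 81.7 CPM and did not pass (0.37, adjusted p = 0.0686), but did so without dKO-N 3 or 4 (adjusted p = 0.0497 and 0.0306), with library totals (0.43, adjusted p = 0.038) and with the replicate block (0.40, adjusted p = 0.0419).

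Plxnd1, the Sema3e receptor, rose in dKO-E, where its ligand gene fell. It was at 72.5, 79.8, 102 and 97.9 CPM in dKO-E, against 43.4, 37.8, 59.6 and 43.9 CPM in control, with no overlap. Plxnd1 had a log2 fold change of 0.93 (SE 0.257, adjusted p = 0.026), and the call was lost without control 1, 2 or 4, dKO-E 3 or dKO-E 4 (adjusted p up to 0.0773), without control 1 and 3 together (1.11, adjusted p = 0.0687) and without dKO-E 3 and 4 together (0.72, adjusted p = 0.213). The dKO-N libraries held 72.1, 116, 56.5 and 43.9 CPM (0.56, adjusted p = 0.282). That value was 0.19 without dKO-N 2 (adjusted p = 0.571), 0.86 without dKO-N 4 (adjusted p = 0.0177) and 0.52 with no filter on low counts (adjusted p = 0.0114). dKO-E did not pass against dKO-N (0.37, adjusted p = 0.471), but was called without dKO-N 2 (0.73, adjusted p = 0.00651). Plxnd1 is also a receptor of vessels, and the 8 endothelial and mural markers summed to 68.0 to 82.9 CPM in dKO-N and 65.3 to 92.7 CPM in dKO-E, against 86.5 to 101 CPM in control. Of the 7 tested, none rose in dKO-E, and Rgs5 fell. The part of vessel cells in the Plxnd1 result was not tested. Among other ligand and receptor pairs in dKO-E, Sema4d rose while Plxnb1 did not pass, and Plxna2 rose while Sema6a did not pass. Sema3a rose while Nrp1 did not pass, and Sema6d rose while Plxna1 did not pass. Likewise Sema5b rose while Plxna1 and Plxna3 did not pass, and Nrp2 rose while Sema3c and Sema3f did not pass. In dKO-N, Sema3e and Sema7a fell while Plxnd1 and Plxnc1 did not pass. No relation between ligand and receptor genes was tested.

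The other plexins tested did not pass in any comparison with TMM scaling and full depth. Plxna4 averaged 2699 ± 395 CPM in dKO-N, 2456 ± 321 CPM in dKO-E and 2588 ± 77.6 CPM in control. Plxna3, the partner of Nrp2 in Sema3f signalling, averaged 81.9 ± 8.66 CPM in dKO-N, 83 ± 1.55 CPM in dKO-E and 97.5 ± 6.76 CPM in control. Its dKO-E libraries lay below all controls without passing the test (log2 fold change -0.23, adjusted p = 0.125), and were called lower with every library thinned (-0.46, adjusted p = 0.0262). Plxnb1, the Sema4d receptor, averaged 98.6 ± 9.86 CPM in dKO-N, 100.4 ± 3.04 CPM in dKO-E and 88.8 ± 8.45 CPM in control, and was called higher in dKO-E with library totals (0.31, adjusted p = 0.0348). Plxnb2, a receptor of class 4 semaphorins, averaged 72.3 ± 12.9 CPM in dKO-N, 64.5 ± 7.35 CPM in dKO-E and 76.4 ± 8.2 CPM in control.

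The neuropilins held the largest rise. Nrp2, the co-receptor for Sema3f and Sema3c, was at 306, 233, 233 and 296 CPM in dKO-E, against 59.7, 43.7, 120.1 and 79.6 CPM in control. Every dKO-E library lay above every other library. The log2 fold change was 1.80 (SE 0.405, adjusted p = 0.012), a 3.49-fold rise, and it held in each of the 12 fits that left out 1 library (adjusted p up to 0.0438). Without control 1 and 3 it was 2.10 (adjusted p = 0.0537), and without dKO-E 3 and 4 it was 1.81 (adjusted p = 0.0758). The dKO-N libraries held 171, 149, 101 and 43.0 CPM and did not pass (0.47, SE 0.46, adjusted p = 0.629). That value ranged between 0.20 without dKO-N 1 and 0.89 without dKO-N 4 (adjusted p = 0.199). dKO-E against dKO-N did not pass either (1.34, SE 0.428, adjusted p = 0.103), so the knockouts were not shown to differ. Nrp2 is also expressed by migrating interneurons. The 7 interneuron markers summed to 270 to 328 CPM in dKO-N and 260 to 385 CPM in dKO-E, against 271 to 320 CPM in control, and none of the 6 tested passed in any comparison (edgeR). Meningeal markers summed to 84.3 CPM in dKO-E 1, against 8.95 to 32.0 CPM in the other dKO-E libraries, and their part in the Nrp2 result was not tested.

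Nrp1, the co-receptor for Sema3a, was lower in dKO-E without passing the test. It was at 168, 139.8, 114 and 87.3 CPM in dKO-E, 163, 160.4, 185 and 329 CPM in dKO-N, and 249.7, 236, 169 and 192 CPM in control. The dKO-E libraries lay below all controls, by a narrow margin between dKO-E 1 and control 3. Nrp1 had a log2 fold change of -0.74 in dKO-E (SE 0.279, adjusted p = 0.0969), and -0.75 with an adjusted p of 0.0187 in the fit without dKO-N 4. In dKO-N it was 0.05 (SE 0.277, adjusted p = 0.946), and -0.33 without dKO-N 4 (adjusted p = 0.481).

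The balance of the 2 neuropilins was computed from raw counts within each library, a ratio that no scaling between libraries affects, and was chosen after the values were seen. Nrp2 counts over Nrp1 counts came to 1.82, 1.67, 2.04 and 3.4 in dKO-E 1 to 4. They came to 1.05, 0.93, 0.545 and 0.13 in dKO-N 1 to 4, and to 0.239, 0.185, 0.709 and 0.415 in control 1 to 4. Nrp2 counts exceeded Nrp1 counts in each dKO-E library and in dKO-N 1, and in no control. The ratio is not corrected for length (9.78 kb of exon in Nrp1 and 11.84 kb in Nrp2), so the 1.05 of dKO-N 1 does not rank the 2 genes. The ratio spanned 1.67 to 3.4 in dKO-E, 0.13 to 1.05 in dKO-N and 0.185 to 0.709 in control. The library with the highest Nrp1 of all 12, dKO-N 4 at 329 CPM, also had the lowest Nrp2 (43.0 CPM, against 43.7 CPM in control 2). The control with the highest Nrp2, control 3, had the lowest Nrp1 among controls. Library dKO-E 1 went the other way, with the highest Nrp2 of all 12 (306 CPM) and the highest Nrp1 of its group (168 CPM). Cajal-Retzius markers summed to 229 to 343 CPM in dKO-E, 382 to 497 CPM in dKO-N and 415 to 481 CPM in control, with Reln and Ndnf lower in dKO-E than in either, and their part in the neuropilin values was not tested.

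**Figure D4:**
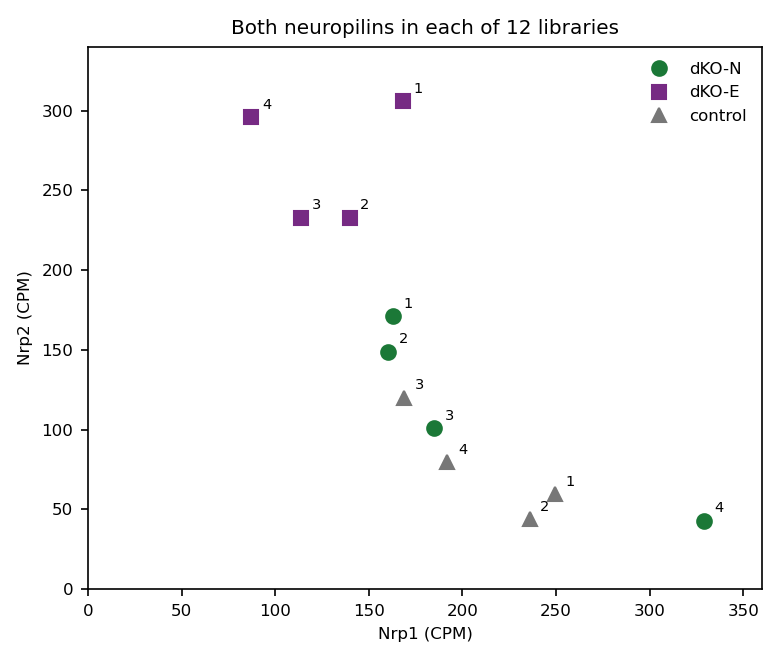
Nrp1 (horizontal axis, CPM) against Nrp2 (vertical axis, CPM) in each of 12 libraries, with the library number beside each point and dKO-N as circles, dKO-E as squares and control as triangles. The dKO-E libraries lie at the upper left, at 233 to 306 CPM of Nrp2, and dKO-N 4 lies at the lower right, at 329 CPM of Nrp1 and 43.0 CPM of Nrp2.

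Genes that act with semaphorin receptors were read from a list of 44 co-receptors and effectors, of which 40 were tested. In dKO-N 6 of 40 fell (beside 6.29% of all genes) and none rose (beside 5.04%), which is 15% called beside 11.3% of all genes. The median log2 fold change was -0.06, against 0.01 over all genes. With library totals 1 of 5 called genes was higher. In dKO-E 9 of 40 fell (beside 10.1% of all genes) and 5 rose (beside 10.1%), which is 35% called beside 20.2% of all genes. The median was -0.10, against 0.01 over all genes, and with library totals 9 of 16 called genes were higher. The largest fall in both was in Met, the receptor for hepatocyte growth factor, which associates with plexin B receptors. Met was at 16.3, 10.3, 20.7 and 23.1 CPM in dKO-N, 20.9, 14.2, 14.8 and 10.6 CPM in dKO-E, and 57.2, 44.7, 47.9 and 37.2 CPM in control. Every knockout library lay below every control. Its log2 fold change was -1.32 in dKO-N (SE 0.204, adjusted p = 8.88e-06), with -1.66 in dKO-E (SE 0.193, adjusted p = 2.25e-08).

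Mical2, an actin-oxidising enzyme of the MICAL family that acts downstream of plexins in the fly, fell in both as well. It averaged 82.9 ± 10.2 CPM in dKO-N, 60.2 ± 11.5 CPM in dKO-E and 146 ± 14.4 CPM in control. On the log2 scale this was -0.85 in dKO-N (adjusted p = 2.94e-06), with -1.27 in dKO-E (adjusted p = 1.41e-10). dKO-E also lay below dKO-N (-0.42, adjusted p = 0.0493), a call lost in 10 of 12 fits that left out 1 library, all but those without dKO-N 2 and without dKO-E 2. Nrcam and L1cam, a pair of adhesion molecules, fell too. Nrcam, which joins Nrp2 in semaphorin responses, averaged 452 ± 55.4 CPM in dKO-N, 407 ± 41.0 CPM in dKO-E and 590.3 ± 36.2 CPM in control (-0.38 for dKO-N with an adjusted p of 0.00634, and -0.53 in dKO-E with one of 5.05e-05), and the dKO-N call was lost without control 1 and 3 (-0.33, adjusted p = 0.116). L1cam, which joins Nrp1 in the response to Sema3a, averaged 206 ± 24.6 CPM in dKO-N, 201 ± 5.47 CPM in dKO-E and 286 ± 15.8 CPM in control (a log2 fold change of -0.49 for dKO-N, adjusted p = 0.000263). Rras2, a small GTPase of the R-Ras family on which plexins act, rose in dKO-E to 133 ± 22.1 CPM, against 91.0 ± 10.8 CPM in control (0.56, adjusted p = 0.000756). It was higher in dKO-E than in dKO-N, which was at 88.5 ± 16.2 CPM (0.65, adjusted p = 0.00215). Without dKO-E 3 and 4 both Rras2 calls were lost (0.33, adjusted p = 0.16 against control and 0.42, adjusted p = 0.164 against dKO-N).

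**Figure D5:**
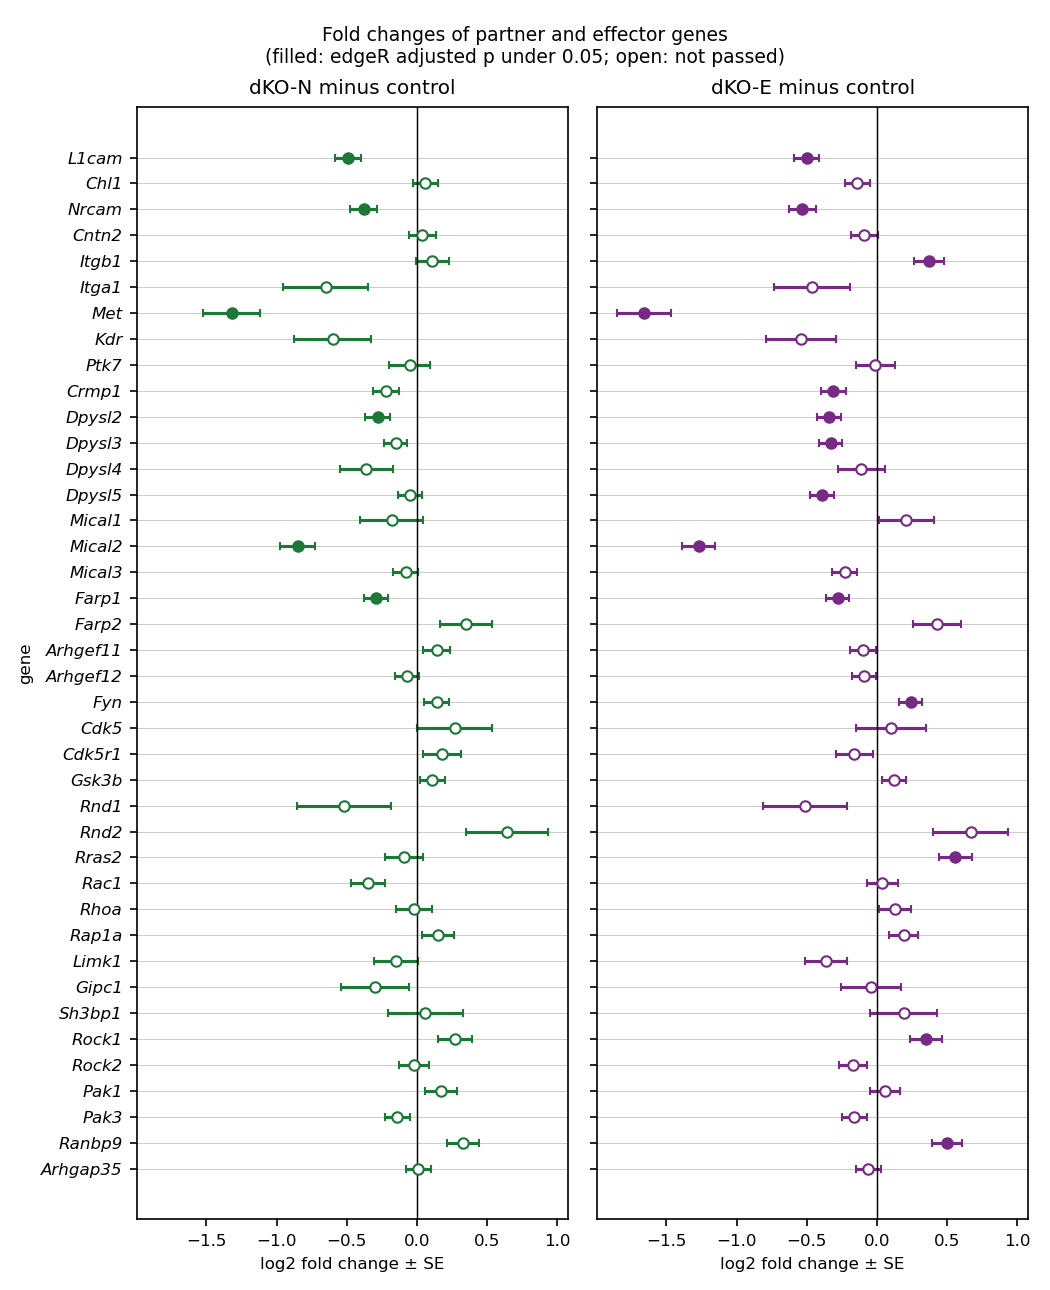
Log2 fold change ± SE of the 40 tested co-receptor and effector genes in dKO-N (left) and dKO-E (right) against control, on a common axis; filled points passed the edgeR test at an adjusted p under 0.05. Met lies lowest in both panels, at -1.32 and -1.66, followed by Mical2, at -0.85 and -1.27; the panels share the control libraries.

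Other axon guidance genes (Slit, Robo, netrin, netrin receptor, Eph and ephrin genes) were counted for comparison, with 32 of 36 listed genes tested. In dKO-N 8 of them passed (25%, beside 11.3% of all genes), in dKO-E 13 (40.6%, beside 20.2%) and between the knockouts 8 (25%, beside 6.84%). The semaphorin, plexin and neuropilin shares were 17.9%, 35.7% and 7.14%, and the differences between these shares were not tested.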

How the data were processed

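RNA depleted of ribosomal RNA was made into ClickSeq libraries with UMIs (unique molecular identifiers), per the labels and the series' design text. The submitters' processing notes name STAR, UMI-tools, HTSeq and the mm10 build; for versions, annotation, strand and introns the setting is not given in the sources used here, so antisense and overlapping genes are uncertain. Each deposited file lists whole-number counts by gene without normalization, judged from its values. Summary lines that name no gene held 11.1% to 14.8% of each library and stayed out of all totals. Identifiers were matched to GENCODE M21 (99.5%). The 31 members, the lists and the tests were chosen with earlier results of these data known. All members are named; those past the threshold are given with every library, and of the co-receptor and effector list up to 4 called genes with the largest change (2 between the knockouts).

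Counts were filtered with filterByExpr (minimum count 10), which kept 11076 genes, scaled with TMM and tested with edgeR 4.0.16 in R 4.3.3, by the quasi-likelihood test in 1 fit of 12 libraries with 9 residual degrees of freedom. P-values were adjusted by Benjamini-Hochberg across the genes kept, at a threshold of 0.05. The procedure was tested on simulated data. Alternatives, among them DESeq2 1.42.0, are given at the end. The labels do not tie libraries to separate animals, and p-values then reflect only library spread, possibly technical. Libraries of 1 group differed by more than counting error, at 1.62 to 5.99 in chi-square divided by its degrees of freedom, and each counted as 1 sample. Promoters were matched by symbol to RefSeq windows (GRCm38.p6), which held 26 of the 31 members. Y-linked counts are the sum over Ddx3y, Eif2s3y, Kdm5d and Uty.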

Additional observations from a re-analysis of the deposited data

Results flagged for a closer look

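In 84 groups of 4 libraries (28 genes in 3 groups), a single library lay far from the other 3 in 5 cases, and chance flags about 1 in 20. For Nrp1, dKO-N 4 read 329 CPM while its group otherwise spanned 160.4 to 185 CPM. For Plxnc1, dKO-E 1 read 119.5 CPM while its group otherwise spanned 95.6 to 98.9 CPM. For Sema6d, dKO-N 3 read 1117 CPM and the rest of its group 949.6 to 966 CPM. Sema4a was at 18.0 CPM in dKO-E 3, against 14.5 to 15 CPM, and Sema4g at 78.3 CPM in dKO-E 4, against 74.5 to 74.6 CPM.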

How the results depend on the processing

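Of 17 member calls over the 3 comparisons, 11 held whichever library was left out and 6 held under all 21 alternatives: Sema3e and Sema5b in both knockouts, Plxna2 in dKO-N and Plxnc1 in dKO-E. No called value changed sign. Leaving out 1 library gave 972 to 1298 called genes in dKO-N, 1699 to 2753 in dKO-E and 300 to 1036 between the knockouts; among members the numbers were 4 to 6, 8 to 10 and 0 to 3, and among co-receptors and effectors 5 to 8, 11 to 17 and 1 to 4. Thinning every library to 722080 counts gave 754 genes and 3 members in dKO-N, 1244 genes in dKO-E, and 331 genes, 0 members and 2 co-receptors and effectors between the knockouts, with fewer genes tested. Without the libraries labelled control 1 and 3, an alternative added after seeing the data, dKO-N had 756 genes, dKO-E 1215 genes and 6 members, and the knockouts differed in 1 member and 2 co-receptors and effectors. Without dKO-E 3 and 4, also added, dKO-E had 1225 genes, 3 members and 9 co-receptors and effectors, and between the knockouts 199 genes, 0 members (2 at an unadjusted p under 0.05) and 0 co-receptors and effectors (5 at an unadjusted p under 0.05) were called. Fitting the 2 knockouts alone gave 488 genes, 1 member and 2 co-receptors and effectors. DESeq2 gave 0 members (5 at an unadjusted p under 0.05) and 2 co-receptors and effectors between the knockouts, and dropping the filter gave 2 co-receptors and effectors. Apart from the fewer libraries or genes in these fits, the cause was not tested. With library totals 57.8% of called genes were higher in dKO-N, against 44.5% with TMM, 73.9% against 50% in dKO-E, and 65.4% against 45.5% between the knockouts. Same-numbered libraries showed no shared deviation from the group means, with correlations of -0.197 to 0.037. With 4 libraries in a group, these correlations cannot exclude that the replicate numbers pair the libraries. With the replicate number as a block, 500 genes, 0 members (5 at an unadjusted p under 0.05) and 2 co-receptors and effectors were called between the knockouts, Plxna1 in dKO-N was lost and Plxnc1 was called. Depth limits Sema3b, Sema3g and Plxnb3, whose levels lie near the floor of 3 counts.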
